A study of Mus musculus with 2 samples.

Results

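Semaphorins, ephrins and Slits and their receptors were followed in RNA of whole mouse lungs. They were taken as every probe set whose single gene symbol in the platform annotation named a semaphorin, a plexin, neuropilin 1 or 2, an ephrin, an Eph receptor, a Slit or a Robo. The rule found 137 of the 34945 probe sets with 1 symbol, which stood for 60 of 18193 genes. These were 20 semaphorins, 9 plexins, 2 neuropilins, 8 ephrins, 13 Eph receptors, 3 Slits, 4 Robos and Plxna4os1, an antisense transcript that is neither ligand nor receptor. Both groups held lungs of embryonic day 18, shortly before birth. One group was wildtype, and the other was homozygous for Nmyc9a, a hypomorphic (reduced-function) allele of Mycn, the gene for the N-Myc transcription factor. Each group was 1 Affymetrix array hybridised with RNA from pooled lungs, and the sources used here give neither the strain nor the number of lungs per pool.

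Guidance proteins were named for steering growing axons, and in the lung the same proteins act between epithelium, mesenchyme, vessels and nerves. Semaphorins bind plexins, and most secreted class 3 semaphorins need a neuropilin to reach them. Ephrins sit on the cell surface and bind Eph receptor tyrosine kinases on neighbouring cells, and signals run into both cells. Secreted Slit proteins bind Robo receptors. Semaphorins, ephrins and Slits are called ligands here, although transmembrane semaphorins and ephrins can also pass signals into the cell that carries them.

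With 1 array per group no test was possible, and no difference below carries a p-value or a check in a replicate. Precision is limited by the number of arrays. The only spread available was that between probe sets of the same gene, whose log2 ratios differed with a pooled SD of 0.40 (1.32-fold) over 5671 genes. It does not measure the spread between lungs, pools or arrays. Ratios are log2 of the array labelled Nmyc9a over the wildtype array, and where signals are given in pairs the wildtype value comes first. Signals were intensities scaled by 1 factor, and each gene was read from its brightest probe set. A gene was measured when the mean of its signals reached a floor of 49.3, the 40th percentile of all signals. A gene at least 1.5-fold apart was counted as higher or lower. Signals of different probes cannot be compared with each other, so each comparison is between the arrays for 1 probe set. In bulk lung RNA, fewer cells of a type and less RNA per cell cannot be told apart.

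All 14 markers of distal lung epithelium on the array were measured, as were all 16 endothelial markers and all 14 of mesenchyme and pericytes. Mycn itself did not check the label: its measured probe sets read 66.3 and 84.8, and 51.1 and 85.4. Both were higher on the array labelled Nmyc9a, at log2 ratios of 0.36 and 0.74, with wildtype signals near the floor. Median deposited signals were 66 and 77.7. The 1.5-fold rule called 6.32% of 12600 measured genes higher and 9.71% lower, and their median log2 ratio was -0.09.

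Of the 60 guidance genes, 52 were measured. Among these 4 (7.69%) were at least 1.5-fold higher on the array labelled Nmyc9a, against 6.32% of all measured genes, and 6 (11.5%) were lower, against 9.71%. The shares thus lay near the background in both directions. The higher genes were Sema3f, Sema4a, Sema4g and Efna5, and the lower genes were Sema3b, Sema3c, Sema3d, Sema3e, Plxnb3 and Robo1. The median log2 ratio was 0.02 and the SD over genes 0.43, the same SD as over all measured genes (0.43). Of the called guidance genes 40% were higher, and this split moved with the scaling. The values as deposited gave 7 higher and 4 lower, quantile normalization 7 and 6, loess 8 and 6, and centring on the measured named genes 7 and 4. Efnb2, Robo2 and Ephb1, at 1.48-fold, 1.48-fold and 1.47-fold higher, lay just inside the size rule. They passed it as deposited and with centring on named genes. After quantile normalization and after loess, Efnb2 passed it together with Nrp2, Sema5a and Sema6d, whereas Robo2 and Ephb1 did not. Over all measured genes the split of 39.4% higher became 49.7% with centring on named genes.

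**Figure D1:**
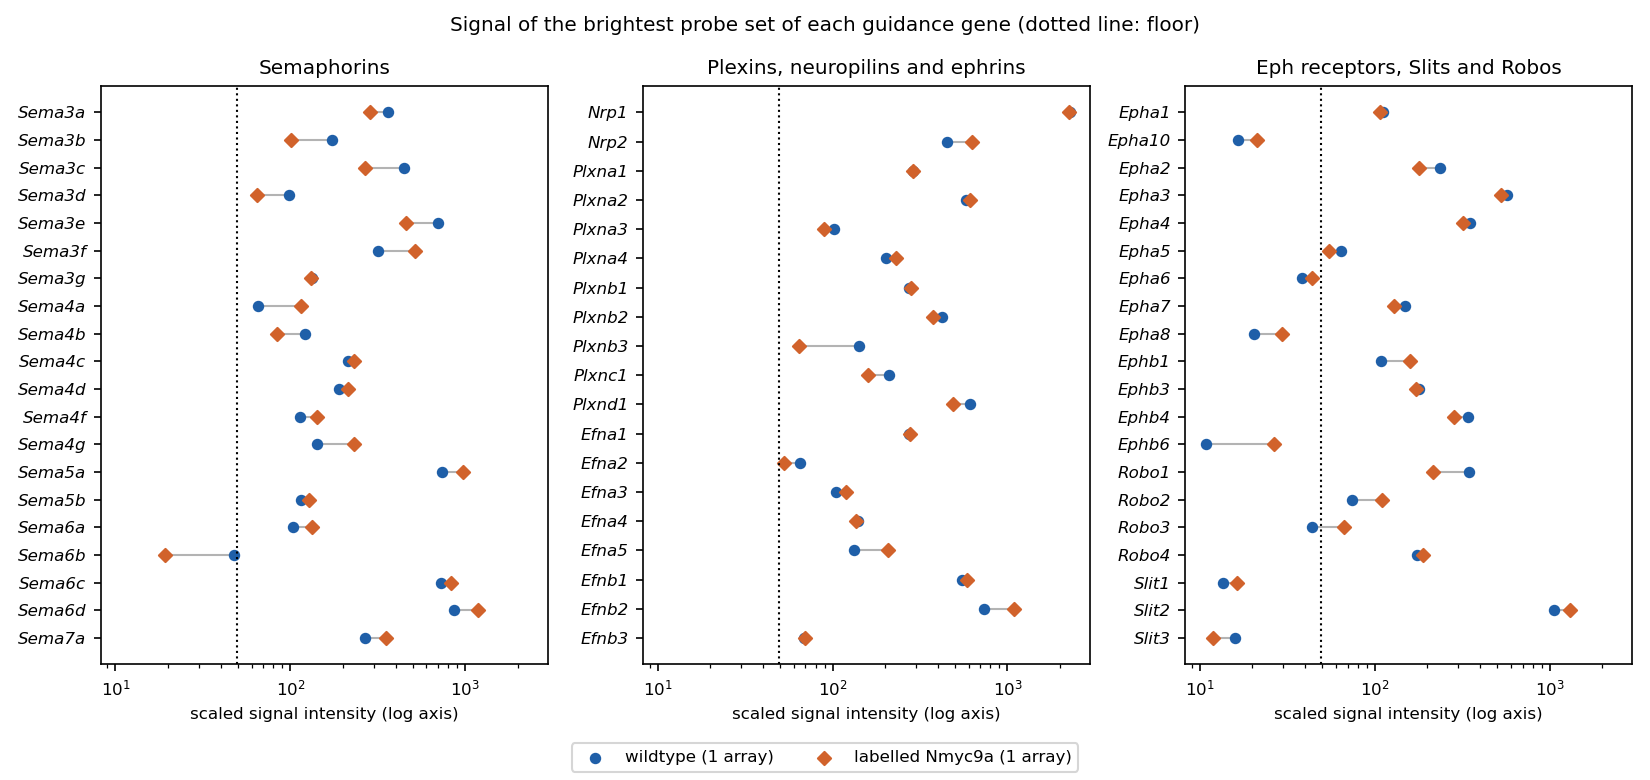
Scaled signal intensity (log axis) of the brightest probe set of each of the 59 ligand and receptor genes on the wildtype array (blue circles) and on the array labelled Nmyc9a (orange diamonds), with the floor of 49.3 as a dotted line. Lengths of the grey bars show the difference for each gene, and positions of different genes cannot be compared; Plxnb3 (141 and 64.2) has the widest bar among genes above the floor.

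The 8 genes under the floor were Sema6b, Slit1, Slit3, Epha6, Epha8, Epha10, Ephb6 and Plxna4os1. Their signals ran from 8.1 for Plxna4os1 to 47.6 for Sema6b on the wildtype array. Sema6b read 47.6 and 19.1, and Epha6 read 38.4 and 44.0. These values carry no ratio, and a probe set under the floor does not show that a gene was silent.

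Semaphorins differed in direction by class. Class 3 semaphorins, the secreted members that repel or attract axons and vessels, were at least 1.5-fold lower in 4 of 7 genes and higher in 1. Of the other 2, Sema3a stood at -0.34 and Sema3g at -0.01, above 0 as deposited and with centring on named genes. Of 12 measured semaphorins of classes 4 to 7, which are bound to the membrane, 11 stood above 0, 2 were at least 1.5-fold higher and none was lower. Sema4b, the gene below 0, was more than 1.5-fold lower after quantile normalization (-0.67) and after loess (-0.63). Sema6c ran from -0.0038 to 0.387 over the alternative settings. The median log2 ratio was -0.60 for class 3 and 0.34 for classes 4 to 7, a difference of 0.94 between medians. The background shares were 6.32% higher and 9.71% lower, and 5194 of 12600 measured genes stood above 0. The split by class was made after the values were seen. It carries no test, and the difference between medians ran from 0.70 to 0.94 over the alternative settings. Scaling by 1 factor moves both medians alike, so the values as deposited and centring on named genes gave 0.94 again by construction. All alternatives reuse the same arrays.

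Promoter windows are printed for semaphorins on either side of this split. They come from RefSeq (GRCm38.p6), whose promoter table matched 52 of the 60 genes by symbol. Each runs 5′ to 3′ on the plus strand, from 220 bases before the annotated start to 30 bases after it. Capitals mark CACGTG, the E-box that Myc and Max are known to bind, which reads the same on both strands. The lower class 3 genes come first, with Sema3c at chr5:17574596-17574845, Sema3d at chr5:12382946-12383195 and Sema3e at chr5:14025056-14025305. Sema4g lies at chr19:44989124-44989373 and the upstream start of Sema6d at chr2:124089749-124089998.
Sema3c: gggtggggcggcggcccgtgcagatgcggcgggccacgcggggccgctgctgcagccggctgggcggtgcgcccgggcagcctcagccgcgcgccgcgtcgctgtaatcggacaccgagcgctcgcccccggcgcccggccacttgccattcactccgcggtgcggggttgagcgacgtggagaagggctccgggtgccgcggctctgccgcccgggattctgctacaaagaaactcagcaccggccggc
Sema3d: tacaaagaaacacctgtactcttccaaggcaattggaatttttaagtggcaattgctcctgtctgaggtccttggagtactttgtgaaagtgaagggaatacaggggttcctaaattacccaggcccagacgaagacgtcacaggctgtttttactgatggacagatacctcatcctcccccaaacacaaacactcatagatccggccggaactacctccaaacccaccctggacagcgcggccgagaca
Sema3e: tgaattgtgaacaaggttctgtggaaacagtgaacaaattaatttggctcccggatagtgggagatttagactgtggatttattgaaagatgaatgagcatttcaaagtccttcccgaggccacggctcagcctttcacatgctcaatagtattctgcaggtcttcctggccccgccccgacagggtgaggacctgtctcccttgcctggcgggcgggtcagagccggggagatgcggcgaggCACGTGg
Sema4g: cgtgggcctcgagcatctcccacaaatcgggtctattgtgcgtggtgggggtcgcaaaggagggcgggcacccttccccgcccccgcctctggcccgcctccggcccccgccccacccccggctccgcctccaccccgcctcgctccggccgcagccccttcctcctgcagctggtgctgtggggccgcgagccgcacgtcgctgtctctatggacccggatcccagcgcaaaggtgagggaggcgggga
Sema6d: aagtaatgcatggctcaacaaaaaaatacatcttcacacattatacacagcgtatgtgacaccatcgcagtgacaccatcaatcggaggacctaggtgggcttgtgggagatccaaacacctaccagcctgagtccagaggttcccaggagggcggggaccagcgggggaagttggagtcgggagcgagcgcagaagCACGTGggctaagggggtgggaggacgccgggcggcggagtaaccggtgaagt
In the full window of 300 bases, 250 before the start and 50 after it, CACGTG was found in 5 of 52 guidance genes (9.62%), against 8.09% of all 27025 genes in the table and 11.2% of its 10135 measured genes. The genes were Sema3e, Sema4b, Sema6d, Robo2 and Epha8. Among those shown, the match lay 24 bases after the start in Sema3e, which was lower, and 23 bases before it in Sema6d, which stood above 0. The downstream start of Sema6d, not shown, had no match. By the 1.5-fold rule, 0 of 3 higher and 1 of 5 lower guidance genes in the promoter table held CACGTG, and Sema6d was not among the genes called. A match of letters is a description and not a binding site. The GC content of the windows of 300 bases was 75.7% for Sema3c, 49.7% for Sema3d and 50.7% for Sema3e. It was 63.7% for Plxnb3 and 57% for Robo1, against a median of 52.7% over all promoters. The lower genes with a promoter entry thus did not share a GC content.

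Sema3e, which binds the plexin Plxnd1 without a neuropilin and repels endothelial cells, read 694 and 457 (1.52-fold lower). All 4 of its probe sets were lower, from 419 and 254 (1.65-fold) to 235 and 173 (1.36-fold). Its brightest probe set lay inside 1.5-fold under 5 of the alternatives, between -0.57 and -0.43 on the log2 scale, and stayed below 0 in all 11. Sema3e was thus lower by every probe set, at a size close to the rule.

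Sema3c, a ligand of both neuropilins that is needed to divide the cardiac outflow tract, read 446.5 and 268 (1.67-fold lower). Its other probe set read 186 and 138. Sema3d, which guides endothelial and neural crest cells, read 98.3 and 64.2 (1.53-fold lower), and its other probe set 79.6 and 25.4, at least 1.61-fold lower. Both probe sets of each gene were lower, and the signals of Sema3d were close to the floor.

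Sema3b read 174 and 101 (1.72-fold lower), and its remaining probe sets lay under the floor on both arrays. Sema3a, a repellent acting through neuropilin 1 that inhibits branching of fetal mouse lung in culture, read 362 and 286, a log2 ratio of -0.34. A second Sema3a probe set read 272 and 202 and the third 130 and 139, so they differed in sign. Sema3g, an endothelial class 3 member, read 133 and 132.

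Sema3f went the other way. This ligand of neuropilin 2 read 317 and 514 (1.62-fold higher). Its other probe sets read 168 and 232, and 62.4 and 78.8, so all 3 were higher, but those 2 stayed inside 1.5-fold. The brightest probe set is of a type (x) that can bind related transcripts, and the log2 ratio was 0.34 once x, s and a probe sets were left out.

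Genes for class 3 semaphorins lie in clusters. In RefSeq (GRCm38.p6) Sema3d, Sema3a, Sema3e and Sema3c follow in this order on mouse chromosome 5, and Sema3b and Sema3f are close neighbours on chromosome 9. The 4 genes of chromosome 5 all stood below 0, while Sema3b was lower and Sema3f higher. Of 18 other protein-coding genes between Sema3d and Sema3c, 3 were measured, and none was 1.5-fold apart. Cacna2d1 stood at 0.21, and Speer3 and Speer4f1, of a multicopy family whose probes may be shared, at 0.25 and 0.30. Between Sema3b and Sema3f, Gnai2 stood at 0.01 and Slc38a3 at -0.09. Speer3, at 62.4 and 74.0, and Speer4f1, at 63.2 and 78.0, read near the floor. The measured neighbours are few, and whether the wider region differed was not tested.

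Sema4a, a membrane semaphorin best known from immune cells, read 65.2 and 115 (1.76-fold higher), and its second probe set read 50.2 and 105. Sema4g read 142 and 232 (1.64-fold higher) by its only probe set. Sema4b was the only class 4 to 7 member below 0, at 121 and 84.4 (1.43-fold lower). The wildtype signals of Sema4a lay near the floor, whereas those of Sema4g and Sema4b did not.

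Sema6d, a transmembrane ligand of Plxna1 known from the chick heart, read 859 and 1184 by its brightest probe set, a log2 ratio of 0.46. Its 3 dimmer probe sets differed by more: 223 and 404, 129 and 319, and 135 and 339. The last was 2.51-fold higher, and the median of all 4 probe sets was 1.08 on the log2 scale. All 4 were higher, and the size depended on the probe set.

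Sema5a, which carries thrombospondin repeats, read 736 and 969 (0.40 on the log2 scale), with other probe sets at 0.67 and -0.07. Sema7a, held by a lipid anchor, read 265.5 and 353 (0.41). Sema6c read 727 and 826 (0.18), and Sema4d, the ligand of Plxnb1, stood at 0.18. Sema6a, Sema4f, Sema5b and Sema4c ranged from 0.13 to 0.36. By their brightest probe set all of these genes stood above 0 and none reached 1.5-fold, although Sema5a did after quantile normalization and after loess. A dimmer probe set of Sema6a read 55.9 and 97.4 (1.74-fold higher), and a dimmer one of Sema6c read 93.3 and 81.7 (-0.19).

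**Figure D2:**
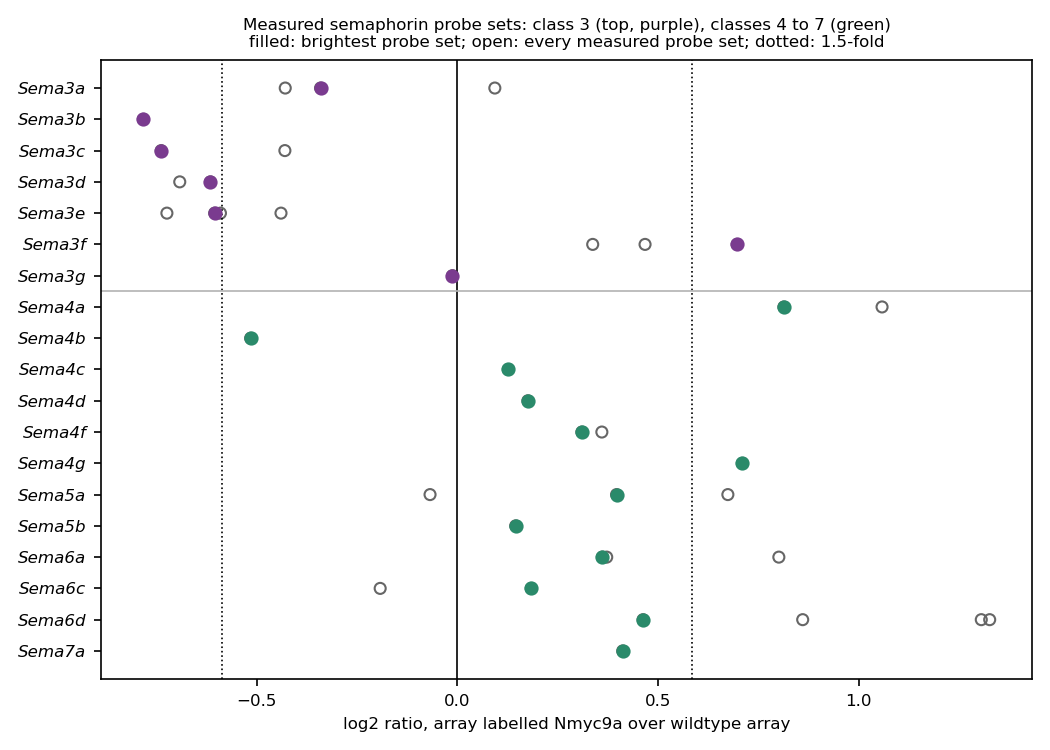
Log2 ratio of the array labelled Nmyc9a over the wildtype array for each measured semaphorin, with class 3 above the line and classes 4 to 7 below it; filled points are the brightest probe set, open points every measured probe set, and dotted lines mark 1.5-fold. Of the class 3 genes, Sema3f alone lies right of 0 by its brightest probe set, and of the other 12 genes Sema4b alone lies left of it.

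Plexins and neuropilins, the receptors of semaphorins, differed less. All 11 were measured, 1 was at least 1.5-fold lower and none was higher, against 9.71% and 6.32% of all measured genes. The median of -0.01 was above 0 as deposited, after quantile normalization, after loess and with centring on named genes. Plxnb3, a receptor of Sema5a, read 141 and 64.2 (2.20-fold lower). By brightest probe sets it was the only guidance gene at least 2-fold apart, while dimmer probe sets of Sema6d and Sema4a were over 2-fold higher. The brightest Plxnb3 probe set is of a type (s) shared between transcripts, and the second one, at 36 and 45, lay under the floor on both arrays. The reading of 64.2 lies near the floor of 49.3. A floor at the 60th percentile, 100.9, lies above that reading and shrinks the Plxnb3 ratio to -0.48 by construction. With the floor at the 20th percentile the ratio stayed at -1.14.

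Plxnd1, the endothelial receptor of Sema3e, read 609 and 488 (1.25-fold lower). Plxnc1, the receptor of Sema7a, read 209 and 160, a log2 ratio of -0.39, and 4 of its 5 measured probe sets were below 0. Plxna2 and Plxna4, which act with neuropilins or bind class 6 semaphorins directly, read 580 and 609, and 202 and 231. Plxna1 read 289 and 288, Plxnb2 424 and 374, and Plxna3 stood at -0.19. None of these plexins reached 1.5-fold.

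Neuropilin 1, which also binds vascular endothelial growth factor, read 2264 and 2253 by the brightest Nrp1 probe set, and 1025 and 1006, and 1143 and 1018 by others. The fourth Nrp1 probe set read 628 and 1131 (1.80-fold higher), so the probe sets lay 1.02 apart on the log2 scale. Nrp2 read 454 and 628 (0.47), but another of its 4 probe sets read 482 and 349 (-0.46). Plxnb1 stood at 0.04 by one probe set and 0.93 by the other. For these 3 receptors the probe sets decided the ratio.

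The ephrins showed 1 of 8 genes at least 1.5-fold higher and none lower, against 6.32% and 9.71% of all measured genes, with a median of 0.06. Efna5, a lipid-anchored A ephrin, read 132 and 207 (1.56-fold higher) by its 1 measured probe set, but fell short of 1.5-fold after quantile normalization and with a pseudocount of 32. Efnb2, the transmembrane ephrin that marks arteries, read 738 and 1094 (1.48-fold higher), with further probe sets at 128 and 186, 365 and 422, and 77.9 and 73.0. Efnb1 read 551 and 585, and Efna1 read 274 and 276. Efna3 stood at 0.19, Efna4 at -0.04 and Efna2, close to the floor, at -0.29. Apart from Efna5 and Efnb2, the ephrins lay within 0.30 of 0.

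None of 9 measured Eph receptors passed 1.5-fold in either direction, against 6.32% higher and 9.71% lower among all measured genes. Of the 9, 8 stood below 0, against 7405 of 12600 measured genes. The Eph median was -0.15, against -0.09 for all measured genes. Epha2, an epithelial receptor of Efna1, was lowest at 236 and 179 (-0.40), and Ephb4, the venous receptor of Efnb2, read 340 and 284 (-0.26). Ephb1 alone was above 0, at 109 and 160 (0.55), by 1 probe set. Epha3 read 568 and 527, Epha4 352 and 318, Epha5 stood at -0.23, Epha1 at -0.05 and Ephb3 at -0.06. Epha3 probe sets ran from -0.62 to 0.49, and Epha7 stood at -0.21 by its brightest probe set and 0.73 by the other. The median of the Eph receptors thus lay near that of all measured genes, and single probe sets of Epha3 and Epha7 went further in either direction.

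Slit2, the Slit ligand measured in these lungs, read 1056 and 1308 (1.24-fold higher), and its other probe sets read 174 and 239, and 232 and 321. All 3 were higher, none by 1.5-fold. Its receptors diverged. Robo1 read 348 and 216 (1.61-fold lower) by its brightest probe set, but a second, near the floor, read 49.0 and 86.0 (0.80 on the log2 scale). The median of its measured probe sets was 0.06, so the direction of Robo1 turned with that choice.

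Robo2, which also binds Slit2, read 74.4 and 110 (1.48-fold higher), and Robo3, known from commissural axons, read 43.9, under the floor, and 66.9, a difference of at least 1.36-fold. Robo4, the endothelial Robo, read 175 and 189. The median of the 4 Robos was 0.27, and it was -0.29 with the floor at the 60th percentile, which left 2 of them measured.

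Set against each other, the median of the ligands lay above that of the receptors, but not in each ligand group. Of 28 measured ligands 19 stood above 0, 4 were at least 1.5-fold higher and 4 lower. Of 24 measured receptors 8 stood above 0, none was higher and 2 were lower. The background was 6.32% higher and 9.71% lower, with 5194 of 12600 measured genes above 0, and the receptors lay near it. The medians were 0.16 for ligands and -0.08 for receptors, a difference of 0.25, while all measured genes stood at -0.09. The difference ran from 0.17 to 0.27 over the alternatives and carries no test. Scaling by 1 factor moves both medians alike, so the values as deposited and centring on named genes gave 0.25 again by construction. All alternatives reuse the same arrays. The SD over genes was 0.45 among ligands and 0.38 among receptors, with the medians of class 3 and class 4 to 7 semaphorins on either side of the ligand median. By group the median was 0.34 for class 4 to 7 semaphorins, 0.06 for ephrins and -0.60 for class 3 semaphorins, and Slit2 stood at 0.31. Of the 19 ligands above 0, 11 were class 4 to 7 semaphorins, a class split off after the values were seen. The ratios are differences within a gene and say nothing of the amount of ligand against receptor.

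**Figure D3:**
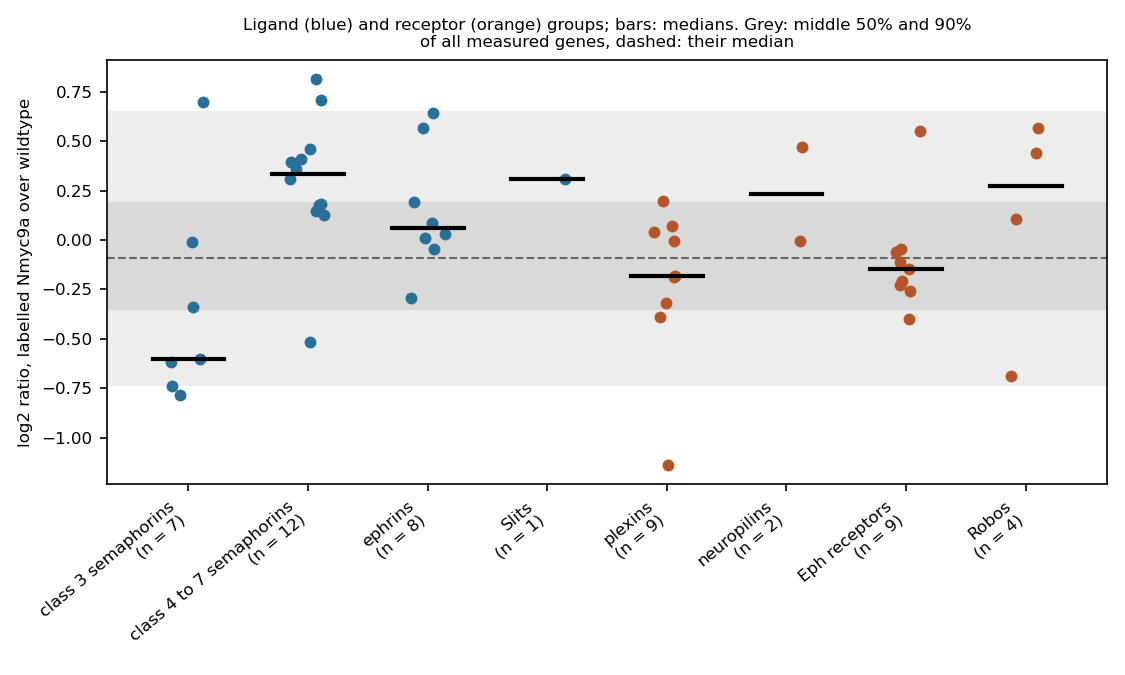
Log2 ratios of measured guidance genes by group (blue ligands, orange receptors, 1 point per gene, jittered sideways) with the group median as a bar; grey bands hold the middle 50% (-0.35 to 0.19) and 90% of single values of all 12600 measured genes and are no scale for a group median. The median is -0.60 for class 3 semaphorins, 0.34 for classes 4 to 7, -0.18 for plexins and -0.15 for Eph receptors.

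Known partners can be read side by side. Sema3e and Plxnd1 stood at -0.60 and -0.32, Sema3f and Nrp2 at 0.70 and 0.47, and Sema7a and Plxnc1 at 0.41 and -0.39. Efnb2 and Ephb4 stood at 0.57 and -0.26, and Sema5a and Plxnb3 at 0.40 and -1.14. Slit2 stood at 0.31, against 0.57 for Robo2 and -0.69 for Robo1. These pairs were picked with the values in view, and the signs of Nrp2 and Robo1 differ between their probe sets.

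Partner genes outside the rule, a list of netrins and their receptors, cytoplasmic effectors and co-receptors, differed little. Of 62 genes listed 50 were measured, of which 3 (6%) were at least 1.5-fold higher and 1 (2%) lower, against 6.32% and 9.71% of all measured genes, with a median of 0.04. Neo1, the netrin and repulsive guidance molecule receptor neogenin, read 588 and 1006 (1.71-fold higher). Tiam1, an activator of Rac, read 95.6 and 158, and Fes, a kinase downstream of plexins, was at least 1.74-fold higher, from 38.2 to 85.8. Nck1, an adaptor that links receptors to actin, read 346 and 203 (1.70-fold lower). Gpc1, a heparan sulfate proteoglycan that binds Slits, stood at -0.54 and Mical1, an actin oxidase downstream of plexins, at -0.49.

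Cell type markers moved beside these values. Of 9 measured mesothelium markers 5 were at least 1.5-fold lower, with a median of -0.76 and a summed signal of 4367 and 2413, and Wt1, at 49.8 and 47.0, was under the floor by its mean. Of 14 markers of mesenchyme and pericytes 5 were lower and none higher, with summed signals of 27771 and 24582. Of 24 measured proliferation genes 19 were lower, with summed signals of 8950 and 5023. Their part in the lower class 3 semaphorins was not tested. None of 16 endothelial markers passed 1.5-fold, and their summed signals were 12243 and 12416. Of 16 nerve and glia markers 8 were measured and none passed 1.5-fold, with summed signals of 1802 and 2043 and with Tubb3, Nefm, S100b and Fabp7 under the floor on both arrays and Elavl4, at 61.7 and 25.3, under it by its mean. Of 8 measured liver markers 5 were higher and 1, Rbp4 (274 and 169), was lower, with summed signals of 741 and 1513. Of 6 measured skeletal muscle markers 2 were higher and none lower (505 and 922). All 5 measured airway epithelium markers stood above 0, 1 of them, Foxj1, 1.63-fold higher, with summed signals of 12089 and 14227. Of 14 distal epithelium markers 2 were lower and none higher (40023 and 36802), and of 8 heart muscle markers 2 were higher and none lower (3660 and 3574). Of 4 measured lymphocyte and thymus markers 1, Themis, was higher and none lower (336 and 405). Of 10 macrophage and granulocyte markers 1 was higher and 3 were lower, with summed signals of 9210 and 8542. The part of these cells in the higher semaphorins was not tested.

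**Figure D4:**
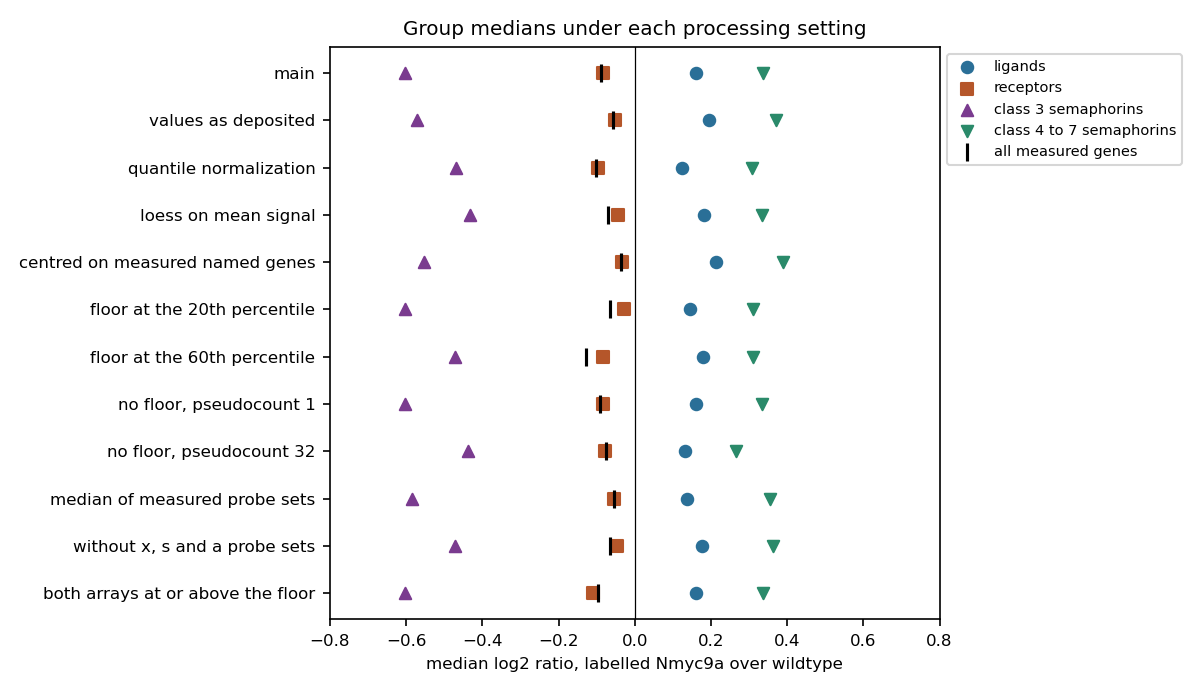
Median log2 ratio of ligands, receptors, class 3 and class 4 to 7 semaphorins and of all measured genes (black ticks) under the reported setting and 11 alternatives. Class 3 medians stay between -0.60 and -0.43, class 4 to 7 medians between 0.27 and 0.39, and ligand medians between 0.12 and 0.21.

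Probe sets of 1 gene disagreed often. More than 1 probe set was measured for 28 guidance genes, and in 14 of these all lay on the same side of 0. Epha3, Nrp1 and Robo1 had probe sets at least 1 apart on the log2 scale. Counted by probe set, 14 of 105 measured were at least 1.5-fold higher and 10 lower, so higher values outnumbered lower ones, unlike in the count by gene. Over all 22457 measured probe sets with a symbol, 2091 were higher and 2076 lower. Probe sets of 1 gene count separately here. Sema6d and Sema4a each gave more than 1 of the higher ones, and Sema3e and Sema3d each more than 1 of the lower ones. Among the lower genes, Sema3c, Sema3d and Sema3e had more than 1 measured probe set and all of them below 0. Sema3f and Sema4a had all above 0, and Sema3b, Sema4g, Efna5 and Plxnb3 rested on a single measured probe set.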

How the data were processed

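RNA of 1 wildtype and 1 Nmyc9a array was compared. The authors deposited a linear signal intensity per Affymetrix probe set; per the labels' protocols, RNA was extracted with Trizol and RNeasy and labelled with biotin, and the sources used here name neither the scanner software nor its scaling. Of 45101 probe sets, 64 controls were set aside. The signals labelled Nmyc9a were multiplied by 0.977, which set the median log2 ratio of probe sets at or above the floor to 0. Log2 ratios took the floor, 49.3, in place of any smaller value, so such ratios are bounds. Symbols came from the platform annotation, updated through Entrez identifiers (34741 of 34945 matched RefSeq GRCm38.p6). No probe set with several symbols matched the rule. Genes took their brightest probe set. All members could be named, with values for those 1.5-fold apart, the 3 brightest and the 2 highest and 2 lowest of each family, and those with disagreeing probe sets. From the partner list the 3 highest and 3 lowest were named, and the neighbours on chromosomes 5 and 9 and the split of semaphorins by class were added with the values in view. The members and lists were chosen with earlier results of these data known. Alternatives changed the scaling, floor, probe set choice and size rule. Calculations used Python 3.11.15, pandas 2.3.3, numpy 2.4.6 and statsmodels 0.14.6 and were tested on simulated data. The number of arrays limits the precision.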

Additional observations from a re-analysis of the deposited data

How the results depend on the processing

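No paired analysis was possible because each group holds 1 array, and leaving out an array would leave no comparison. Of the 10 guidance genes at least 1.5-fold apart, 9 kept their direction under every alternative that measured them, and Robo1 turned to 0.0576 with the median of its probe sets. These 10 genes were picked for their size, and a changed floor cannot turn a sign. A median of probe sets cannot differ where only 1 was measured, so this count says little of robustness. Sema3e stayed past 1.5-fold in 6 of 11 alternatives and Sema3d in 7 of 10. The count of higher guidance genes was 7 as deposited, 7 after quantile normalization, 7 with centring on named genes, 8 after loess and 0 at a 2-fold rule, which left 1 lower gene. The median of all guidance genes moved from 0.02 to 0.085 after loess. The partner list moved from 0.04 to 0.0972 after loess and to 0.1012 with the median of probe sets. All measured genes past the size rule, 2020 here, numbered 3492 with the floor at the 20th percentile, 1239 with it at the 60th, 1338 with a pseudocount of 32 and 337 at 2-fold. The larger size lowers the 2-fold counts by construction. The 60th percentile floor left 9384 genes measured and also shrinks ratios of dim genes, and the share of each was not tested. For the others the cause was not tested. Signals near the floor limit Sema3d, Sema4a, Plxnb3, Robo3 and Efna2.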

Other observations

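In guidance genes with at least 2 measured probe sets, the dimmest probe set had the higher log2 ratio in 20 of 28 genes (71.4%), with a median difference of 0.16 from the brightest. Over all 5671 such genes the share was 60.8% and the median difference 0.12. Sema6d, Plxnb1, Robo1, Epha7 and Nrp1 were the guidance genes where a dimmer probe set stood over 0.8 above the brightest; they were picked after their values were seen.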
